A study of Mus musculus with 47 samples.

Results

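The contactin genes Cntn1, Cntn2, Cntn3, Cntn4, Cntn5 and Cntn6 were followed in RNA-seq of brainstem and hippocampus. Members were the rows of the brainstem and hippocampus count tables whose Ensembl identifiers map to these symbols, and all 6 were found in both, among 33139 rows in brainstem and 31751 in hippocampus. Cntn3 was picked for the family because of its hippocampal difference between transgenic and wildtype mice. Its hippocampal genotype values are therefore a description with no test, while its brainstem and diet values and the other members were not part of that choice.

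All mice were males of the C57BL/6 strain, studied at 12 months of age. Transgenic mice (TG) express human A30P alpha-synuclein, a mutant linked to familial Parkinson disease, in neurons of the central nervous system under the Thy1 promoter. Wildtype mice (WT) carry no transgene. Within each genotype, mice were given a standard diet (SD) or, from 5 weeks of age, a high fat diet (HFD), which gives the groups WT_SD, WT_HFD, TG_SD and TG_HFD. TG mice were kept as a homozygous colony and WT mice as a parallel colony from the same outcross, so the transgene and the colony cannot be told apart. Brainstem means the posterior medulla, and hippocampus the structure with all its subfields. Each group had 6 libraries in each region, apart from WT_SD in brainstem with 5. The labels do not say which brainstem and hippocampus libraries came from the same mouse, and p values measure the spread between libraries.

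Contactins are adhesion molecules of the immunoglobulin superfamily that are held on the outer face of the cell membrane by a lipid anchor. They act in axon growth, in synapse formation and in the contact between axons and myelin. Cntn1 joins the Caspr protein Cntnap1 and glial neurofascin at the junctions that flank nodes of Ranvier. Cntn2 gathers potassium channels next to these junctions together with Cntnap2, and is made by neurons and oligodendrocytes. Cntn3 promotes neurite outgrowth and is a less studied member. Cntn4 binds the amyloid precursor protein and guides olfactory and visual axons, Cntn5 acts in the auditory and visual pathways, and Cntn6 is best known from the cerebellum.

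Cntn3, Cntn6 and Cntn4 lie in this order on chromosome 6. Cntn1 is on chromosome 15, Cntn2 on chromosome 1 and Cntn5 on chromosome 9. The 250 bases upstream of the RefSeq starts (build GRCm38.p6) are shown for the chromosome 6 members, because only Cntn3 among them was called for genotype and because its window stands at the low end for CpG. Sequences run 5′ to 3′ on the strand of the gene, and capitals mark each CG, the dinucleotide that carries DNA methylation and reads the same on both strands. The Cntn3 window is chr6:102464668-102464917 on the minus strand, the Cntn6 window chr6:104492794-104493043 on the plus strand, and the Cntn4 window chr6:106118692-106118941 on the plus strand.
Cntn3: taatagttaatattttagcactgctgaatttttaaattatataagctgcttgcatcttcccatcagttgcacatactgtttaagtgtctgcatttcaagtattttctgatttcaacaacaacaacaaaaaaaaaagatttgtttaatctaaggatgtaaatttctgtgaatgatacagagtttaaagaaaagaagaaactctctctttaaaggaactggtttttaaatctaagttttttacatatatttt
Cntn6: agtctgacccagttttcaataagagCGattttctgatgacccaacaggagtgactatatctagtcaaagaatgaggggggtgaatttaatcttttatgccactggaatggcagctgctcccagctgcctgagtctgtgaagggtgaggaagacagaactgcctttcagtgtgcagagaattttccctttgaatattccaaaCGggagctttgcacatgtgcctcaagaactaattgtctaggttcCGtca
Cntn4: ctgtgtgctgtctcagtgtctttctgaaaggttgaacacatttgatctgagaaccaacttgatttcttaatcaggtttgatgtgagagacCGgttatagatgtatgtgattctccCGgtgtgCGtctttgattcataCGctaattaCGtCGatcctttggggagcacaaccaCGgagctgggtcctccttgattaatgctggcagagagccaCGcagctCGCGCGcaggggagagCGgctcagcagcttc
The Cntn3 window held 0 CG in 250 bases and 26.4% G or C. Cntn6 had 3 CG and the Cntn4 window shown had 12, while a second RefSeq window of Cntn4, which overlaps it, had 2. Over all 32851 RefSeq windows of this length, the median was 6 CG, and 7.87% held none. Among the other members, Cntn5 reached 26 CG in 1 of its windows, Cntn2 had 10 and Cntn1 had up to 7. The RefSeq start of Cntn3 lies 108434 bases inside the gene as GENCODE draws it, and that of Cntn4 lies 441282 bases inside, so neither window need be the start used in these tissues. Which start the reads came from was not analysed here.

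Libraries held 10020784 to 15078812 counted reads in brainstem and 11945971 to 17328447 in hippocampus. Thy1, whose promoter drives the transgene, was counted at 6530 to 9310 CPM (counts per 1000000 reads) in TG and at 484 to 586 CPM in WT brainstem, and at 6780 to 8170 and 540 to 603 CPM in hippocampus, so each library matched its genotype label. Summed dentate gyrus markers (Prox1, Dsp and C1ql2) were at 29.4 to 46.7 CPM in brainstem. In hippocampus they were at 197 to 250 CPM in WT and 144 to 239 CPM in TG libraries, which overlapped. Summed CA1 pyramidal cell markers were at 445 to 554 CPM in WT and 398 to 514 CPM in TG hippocampus. Summed CA3 and CA2 markers were at 128 to 151 CPM in WT and 114 to 149 CPM in TG. Summed general neuron markers were at 5070 to 5810 CPM in WT and 5200 to 5860 CPM in TG. The part of these markers in the hippocampal Cntn3 difference was not tested. Choroid plexus markers ranged from 11.7 to 2990 CPM between brainstem libraries of both genotypes.

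Levels of the members were compared per length, as reads per kilobase of exon, scaled for depth, on a scale shared by the regions (nRPKM). In brainstem, Cntn1 was at 42.0 ± 2.99 nRPKM (SD, n = 23) and Cntn2 at 26.1 ± 1.70. The remaining members were far lower, with Cntn4 at 3.23 ± 0.316, Cntn6 at 3.02 ± 0.355, Cntn3 at 1.59 ± 0.309 and Cntn5 at 0.739 ± 0.138 nRPKM. Libraries overlapped between the neighbours Cntn4 and Cntn6 and between Cntn6 and Cntn3, and not between the other neighbours in this order. Cntn1 and Cntn2 made up 54.8% and 34.0% of the summed contactin level.

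In hippocampus the order changed below Cntn2. Cntn1 was at 49.4 ± 3.02 nRPKM (SD, n = 24) and Cntn2 at 8.07 ± 0.768. Cntn3 came next at 2.26 ± 0.776 nRPKM, a mean over genotypes that differed, followed by Cntn4 at 2.11 ± 0.292, Cntn6 at 0.956 ± 0.152 and Cntn5 at 0.727 ± 0.188. Cntn3 overlapped with Cntn4, and Cntn6 with Cntn5. The genotypes differed in this order: Cntn3 was at 2.92 ± 0.13 nRPKM and Cntn4 at 2.21 ± 0.179 in WT_SD, against 1.47 ± 0.201 and 1.94 ± 0.276 in TG_SD (SD, n = 6 each), with the same order as on SD in each genotype on HFD. With the length of the longest transcript in place of all exons, Cntn4 stood above Cntn3 in hippocampus and Cntn6 above Cntn4 in brainstem. Cntn1 alone made up 77.8% of the summed contactin level and Cntn3 3.56%.

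**Figure D1:**
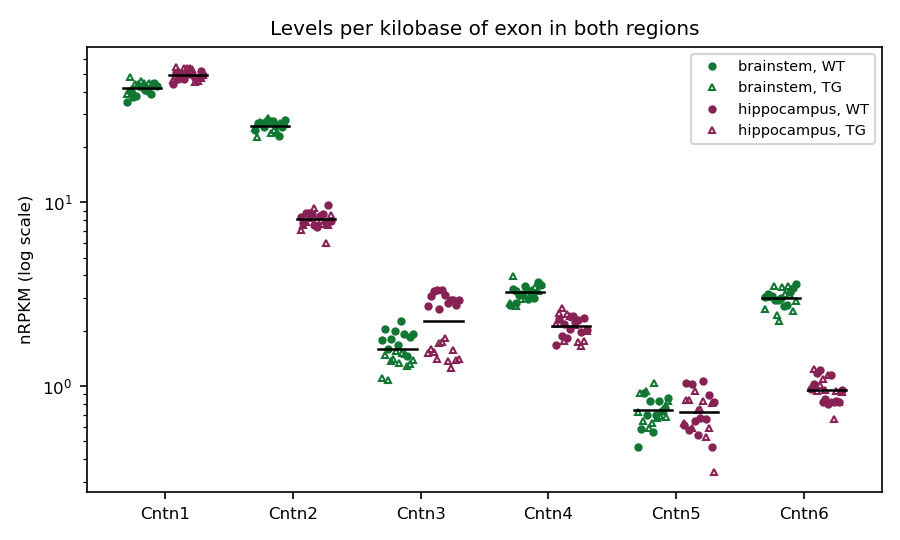
Level of each contactin gene in nRPKM on a log axis, with 1 point per library (filled circles WT, open triangles TG) and a line at the mean of the region. Cntn2 and Cntn6 sit lower in hippocampus than in brainstem in every library, and the hippocampal points of Cntn3 fall into a WT and a TG set.

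The regions were compared in 1 edgeR quasi-likelihood fit of all 47 libraries, averaged over the 4 groups. Calls needed an adjusted p (Benjamini-Hochberg) no higher than 0.05 together with a log2 change of 0.3 or more in either direction. Of all 13993 genes tested, 61.3% were called, so most genes separated the regions. Of the 5 members tested, 4 were called. Cntn2 was lower in hippocampus, at -1.70 ± 0.04 on the log2 scale (SE, adjusted p = 7.98e-40, edgeR), which is 30.9% of its brainstem level. Cntn6 differed by -1.67 ± 0.06 (adjusted p = 3.46e-31, edgeR), or 31.5% of brainstem, and Cntn4 by -0.62 ± 0.05 (adjusted p = 3.99e-17, edgeR). Cntn3 was higher in hippocampus, by 0.43 ± 0.05. It is among the 4 called, but its p is not given, because its hippocampal values chose it. This average covers genotypes that differed, as given below. Cntn1 was higher by 0.24 ± 0.03 (adjusted p = 4e-11, edgeR), which did not reach the fold threshold.

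The Cntn3 difference between regions was unlike in the genotypes. In WT mice the log2 fold change of hippocampus over brainstem was 0.70 (95% interval 0.57 to 0.83), and in TG mice it was 0.17 (0.03 to 0.30). These intervals are given with no test, because the hippocampal values of Cntn3 chose it. The other members gave like values in both genotypes: Cntn2 was at -1.67 in WT and -1.72 in TG, Cntn6 at -1.71 and -1.63, Cntn4 at -0.61 and -0.62, and Cntn1 at 0.27 and 0.20. Genes of myelin made by oligodendrocytes were also lower in hippocampus, with Mbp at -2.05, Mag at -2.19 and Mog at -2.25 on the log2 scale, and their part in the Cntn2 difference was not tested. In tissue of mixed cells, fewer cells of a type and less RNA per cell cannot be told apart.

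In hippocampus Cntn3 was lower in every TG library than in any WT library. On SD, WT libraries ranged from 18.0 to 20.8 CPM with a median of 19.5, and TG libraries from 8.49 to 12 CPM with a median of 9.23. On HFD, WT libraries ranged from 17.5 to 22.2 CPM with a median of 21.0, and TG libraries from 9.42 to 11.5 CPM with a median of 10.3. The gap between the genotypes, from 12 to 17.5 CPM, was wider than the range of the 12 TG libraries. These are the values that chose Cntn3.

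The group means were 19.4 ± 0.952 CPM in WT_SD, 20.3 ± 2.06 in WT_HFD, 9.77 ± 1.32 in TG_SD and 10.5 ± 0.773 in TG_HFD (SD, n = 6 each), from 127 to 384 reads per library. The fitted log2 fold change was -1.04 ± 0.08 (SE) for TG_SD/WT_SD and -1.07 ± 0.09 for TG_HFD/WT_HFD, and TG hippocampus held 48.3% of the WT level averaged over diets (95% interval 44.0 to 53.0). The genotype by diet interaction was -0.03 (-0.26 to 0.20). These are descriptions with no test. Of all genes tested in hippocampus, 0.0904% were called on SD, 0.309% on HFD and 0.286% averaged over diets, and 0.0301% had no overlap between all TG and all WT libraries. Cntn3 is in each of these counts.

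**Figure D2:**
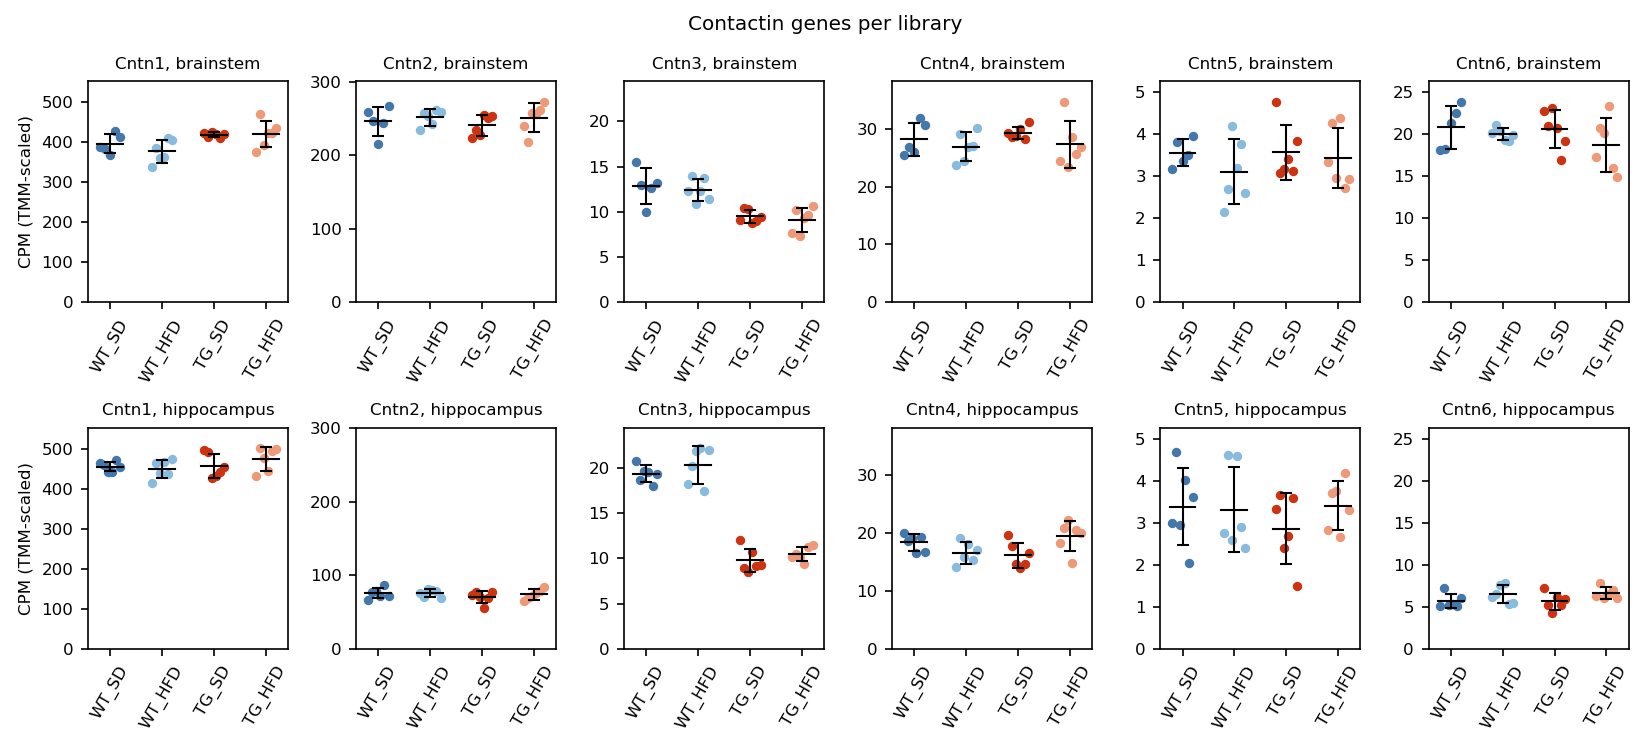
CPM of each contactin gene by group, with 1 point per library, a line at the mean and bars of 1 SD, in brainstem (top) and hippocampus (bottom) on the same scale for each gene. The 12 hippocampal TG libraries of Cntn3 lie at 8.49 to 12 CPM and the 12 WT libraries at 17.5 to 22.2 CPM, while TG and WT points overlap for every other member.

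In brainstem, which played no part in the choice of Cntn3, the gene was again lower in TG mice, by a smaller margin. The paper describes both regions as taken from the animals of each group. These libraries may therefore come from the same mice as the hippocampal ones. The 5 WT_SD libraries were at 15.5, 13.0, 9.96, 12.6 and 13.2 CPM, and the 6 TG_SD libraries ranged from 8.81 to 10.4 CPM with a median of 9.28. The lowest WT_SD library fell within the TG_SD range, and the other WT_SD libraries lay above it. On HFD the groups did not overlap, as 0.682% of tested genes did not, with WT libraries from 10.9 to 14.0 CPM (median 12.3) and TG libraries from 7.39 to 10.6 CPM (median 9.50).

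Means were 12.9 ± 1.97 CPM in WT_SD (SD, n = 5), 12.4 ± 1.23 in WT_HFD, 9.51 ± 0.689 in TG_SD and 9.14 ± 1.33 in TG_HFD (n = 6 each), from 78 to 187 reads per library. Averaged over diets, Cntn3 fell in TG brainstem by 0.36 ± 0.08 on the log2 scale (SE, adjusted p = 0.0213, edgeR's quasi-likelihood test), to 77.9% of WT (95% interval 70 to 86.7). In this comparison 0.0975% of all tested genes were called, 13 of 13340. Within a diet the difference had the same direction and a like size but missed the threshold, at -0.35 ± 0.10 for TG_SD/WT_SD (adjusted p = 0.131, edgeR) and -0.37 ± 0.12 for TG_HFD/WT_HFD (adjusted p = 0.661, edgeR). The shares of all genes called were 0.135% and 0.045%. Over both diets TG and WT overlapped in brainstem, where 0.03% of tested genes had no overlap.

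The averaged brainstem call was lost without WT_SD replicate 4, TG_SD replicate 8, TG_HFD replicate 1 or TG_HFD replicate 7, and over all 23 fits with 1 library left out the log2 fold change ranged from -0.42 to -0.29 and the adjusted p from 0.0071 to 0.145 (edgeR). Summed astrocyte markers were at 1130 to 1340 CPM in WT and 1260 to 1770 CPM in TG brainstem, with 0 of 5 genes called, and their part in the Cntn3 difference was not tested.

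The genotype difference of Cntn3 was larger in hippocampus than in brainstem by -0.53 ± 0.09 on the log2 scale (SE, joint fit), given with no test since Cntn3 was selected on its hippocampal values. The joint fit has no surrogate variables, so this value is not the plain difference of the within-region values. Only 0.0214% of all genes, 3 of 13993, were called for such a difference between regions. The other tested members were at -0.07 (Cntn1), -0.05 (Cntn2), -0.01 (Cntn4) and 0.08 (Cntn6), and none of these was called. TG libraries held Cntn3 at 9.32 ± 1.03 CPM in brainstem (SD, n = 12) and 10.1 ± 1.1 CPM in hippocampus (n = 12), whereas WT libraries were at 12.6 ± 1.54 (n = 11) and 19.8 ± 1.62 CPM (n = 12), each scaled within its region.

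**Figure D3:**
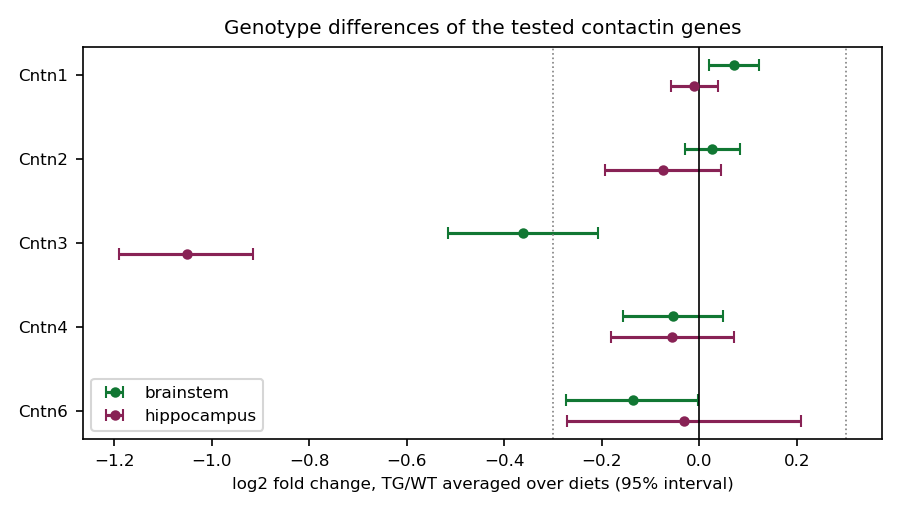
Log2 fold change of TG over WT averaged over diets for the 5 tested members, with 95% intervals, in brainstem (green) and hippocampus (purple); dotted lines mark the fold threshold of 0.3. Cntn3 lies at -0.36 in brainstem and -1.05 in hippocampus, and the intervals of the other members lie within the fold threshold in both regions.

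None of Cntn1, Cntn2, Cntn4 and Cntn6 was called for genotype in either region, on either diet or averaged. Cntn1, the most abundant member, was at 386 ± 26.7 CPM in WT (SD, n = 11) and 420 ± 22.5 CPM in TG brainstem (n = 12), a log2 difference of 0.07 with an interval of 0.02 to 0.12 (adjusted p = 0.307, edgeR). In hippocampus it was at 453 ± 17.9 and 466 ± 30.1 CPM (-0.01, interval -0.06 to 0.04). Cntn2 was at 249 ± 15 CPM in WT and 246 ± 17.1 CPM in TG brainstem, and at 75.8 ± 5.95 and 72.2 ± 7.38 CPM in hippocampus, where the interval was -0.19 to 0.04. The intervals of both genes lay within the fold threshold in both regions.

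Cntn6 in brainstem ranged from 18.1 to 23.9 CPM in WT and from 14.9 to 23.4 CPM in TG libraries, with a log2 difference of -0.14 (interval -0.27 to -0.002, adjusted p = 0.517, edgeR). In hippocampus, where it had 65 to 127 reads per library, the interval was -0.27 to 0.21. Cntn5 had 26 to 65 reads per library in brainstem and 21 to 68 in hippocampus, and its mean counts of 42.6 and 46.5 were under the minimum of 50 for testing. Its libraries overlapped widely, from 2.16 to 4.21 CPM in WT and 2.73 to 4.78 CPM in TG brainstem, and from 2.05 to 4.69 and 1.5 to 4.19 CPM in hippocampus.

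Cntn4 gave the lowest raw p for the interaction among the other members in hippocampus, 0.00559 in the edgeR fit. WT_SD libraries ranged from 16.5 to 20 CPM (median 18.9) and WT_HFD libraries from 14.1 to 19.2 CPM (median 16.4). TG_SD libraries ranged from 14.0 to 19.6 CPM (median 15.7) and TG_HFD libraries from 14.8 to 22.2 CPM (median 20.3). The groups overlapped, with the medians lower on HFD in WT and higher on HFD in TG. The log2 difference TG_HFD/TG_SD was 0.23 ± 0.06 (SE, adjusted p = 0.27, edgeR), and the interaction was 0.30 ± 0.10 (adjusted p = 0.53, edgeR). Neither passed the test. In brainstem the Cntn4 interaction had the other sign, -0.23 ± 0.10 (adjusted p = 0.984, edgeR).

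No tested member was called for diet in either genotype or region. For Cntn3, WT_HFD/WT_SD was 0.13 (95% interval -0.03 to 0.29) and TG_HFD/TG_SD 0.10 (-0.06 to 0.26) in hippocampus, and -0.08 (-0.28 to 0.12) and -0.10 (-0.30 to 0.11) in brainstem. Diet effects within these intervals are not excluded. Over all genes, WT_HFD/WT_SD gave 0.015% calls in brainstem and 0.0377% in hippocampus, and TG_HFD/TG_SD gave 0.0075% and 0%. The interaction gave 0.0075% in brainstem and 0% in hippocampus. Both hippocampal comparisons with 0 calls by edgeR had 965 and 845 genes whose raw p was 0.05 or lower, and DESeq2 called 2 and 1.

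The members were also set against each other within each library, which does not depend on depth or scaling. For each 1000 Cntn1 reads, hippocampal WT libraries had 38.1 to 49.7 Cntn3 reads and TG libraries 18.2 to 24.6. In brainstem the ranges were 27.0 to 39.8 in WT and 18.7 to 25.1 in TG, so all 12 TG libraries lay below all 11 WT libraries on this ratio. Among all tested genes except Cntn1, 0.045% had no overlap in reads per Cntn1 read in brainstem and 0.0301% in hippocampus. Cntn3 is in both of these shares. Cntn1 itself was at 420 CPM in TG and 386 CPM in WT brainstem, and its part in the brainstem ratio was not tested. For each 100 Cntn4 reads, WT brainstem had 38.0 to 60.7 Cntn3 reads and TG brainstem 29.3 to 39.4, which overlapped. The summed level of all 6 members overlapped between the genotypes, at 61.6 to 67.5 nRPKM in WT_SD and 56.7 to 68.0 nRPKM in TG_SD hippocampus.

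Within groups, members rose and fell together to unequal degrees. Across the libraries of a region, after removing group means, Cntn1 and Cntn4 had a Pearson r of 0.84 in brainstem (n = 23) and 0.81 in hippocampus (n = 24). Cntn3 had r of 0.54 and 0.52 with Cntn1, and 0.37 and 0.48 with Cntn4. Cntn2 and Cntn3 were at 0.26 and -0.17. These points share library depth and dissection, and no test was made.

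None of the neighbours of Cntn3 on chromosome 6 was called. Among the 10 tested genes on each side in annotation order, 0 of 20 were called for genotype in either region and on either diet, where at most 0.309% of all genes were called, so this count says little about them. Their log2 fold changes averaged over diets ranged from -0.11 to 0.07 in hippocampus and from -0.14 to 0.17 in brainstem. This stretch includes Cntn6, Cntn4 and Chl1, a neural adhesion molecule of the L1 family, which was at -0.08 ± 0.03 in hippocampus (SE, adjusted p = 0.187, edgeR).

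**Figure D4:**
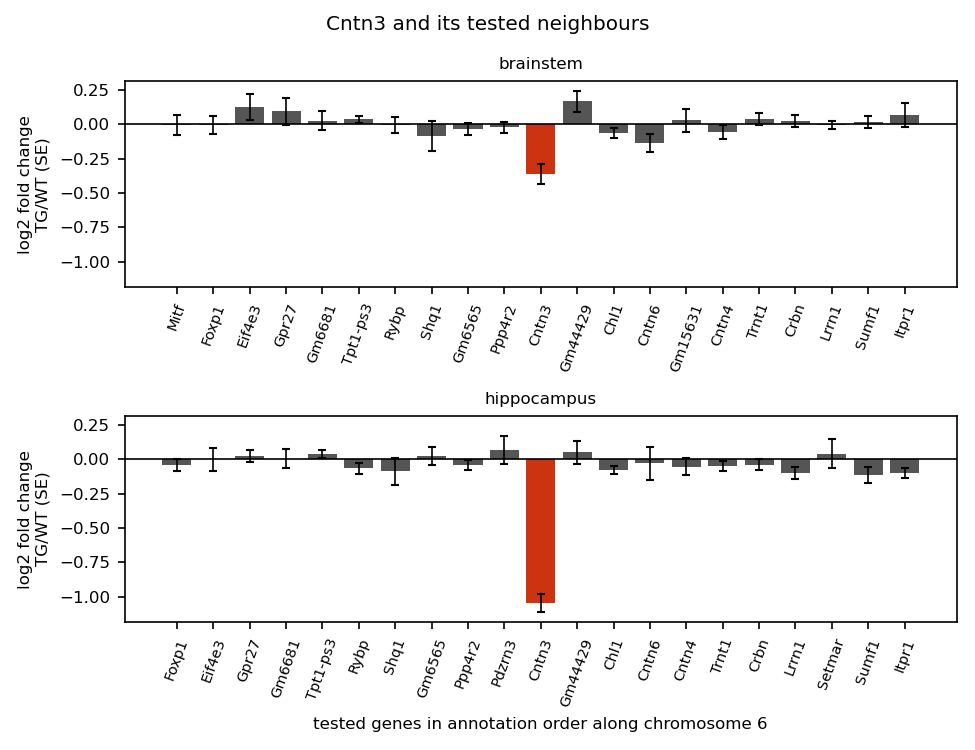
Log2 fold change of TG over WT averaged over diets, with bars of 1 SE, for Cntn3 (red) and the 10 tested genes on each side of it along chromosome 6, in brainstem (top) and hippocampus (bottom). Cntn3 stands at -0.36 and -1.05, and its neighbours stay between -0.14 and 0.17.

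Genes of contactin complexes were followed as 38 partners. These were the Caspr family, the L1 family, phosphatases and relatives of the amyloid precursor protein, ligands, parts of the node and juxtaparanode, and other adhesion molecules. Of these, 34 were tested in brainstem and 37 in hippocampus, and 0 were called for genotype, diet or interaction in either region, where at most 0.309% of all genes were called. Their median log2 fold change for genotype averaged over diets was 0.003 in brainstem and -0.01 in hippocampus, against 0.004 and -0.003 over all genes. Cntnap1, the partner of Cntn1 at the paranode, was at -0.04 ± 0.03 in brainstem and -0.02 ± 0.03 in hippocampus. Cntnap2, the partner of Cntn2, was at 0.01 ± 0.03 and 0.02 ± 0.04, and App at 0.02 ± 0.03 and -0.04 ± 0.03.

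Between regions, 19 of 37 tested partners were called higher in hippocampus and 7 lower, where 61.3% of all genes were called, 4166 higher and 4415 lower. Of these 37 partners, 34 reached the mean count minimum in brainstem. The rest entered through their hippocampal counts alone, which favours a call as higher there. Kcna1 and Kcna2, the potassium channels of the juxtaparanode where Cntn2 acts, were lower, at -0.66 ± 0.07 (adjusted p = 2.75e-11, edgeR) and -1.21 ± 0.06 (adjusted p = 1.23e-24, edgeR), as was Nfasc, the gene of neurofascin, at -0.86 ± 0.03 (adjusted p = 2.77e-28, edgeR). Cntnap2 was at -0.13 ± 0.04 and not called. Cntnap1 was higher, by 0.33 ± 0.04 (adjusted p = 9.51e-12, edgeR). Tnr, a matrix ligand of contactins, was higher by 1.36 ± 0.06 (adjusted p = 1.13e-26, edgeR) and Chl1 by 1.13 ± 0.04 (adjusted p = 1.71e-29, edgeR).

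Genes most like Cntn3 were named by the absolute correlation of log2 CPM over the 24 hippocampal libraries. Over all libraries the closest included Thy1 (r = -0.96), Cbarp (0.84), Trim35 (0.84) and Gm15446 (-0.81). These libraries include both genotypes, and Cntn3 was chosen on their difference. With group means removed, the 5 genes with the highest positive correlation were Pcdh11x (0.82), Gm6477 (0.78), Lactb2 (0.72), Tmem255a (0.70) and Fxr1 (0.66). They are the top of all tested genes, and no test was made. In the 23 brainstem libraries the same genes were between -0.34 and 0.09, so this within-group likeness was not seen there. Cbarp, an inhibitor of voltage-gated calcium channels, had a log2 fold change of TG over WT of -0.43 in hippocampus and -0.15 in brainstem.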

How the data were processed

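Reads were poly(A)-selected, single-end, and per the labels the submitters' processing notes name FastQC 0.11.9, STAR 2.7.9a and DESeq2 1.32.0. The authors aligned to the mouse genome of Ensembl and deposited raw counts per gene and library. The counting step is not given in the sources used here, so reads shared between genes cannot be judged. The deposited tables hold 33139 and 31751 rows, of which 32610 and 31295 matched a symbol in GENCODE for GRCm38. That is not the build of the alignment, so coordinates are given only for the windows upstream of RefSeq starts. Exon lengths are those of GRCm38.

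Tests took the genes whose mean count reached 50 in a region (13340 in brainstem, 13272 in hippocampus) with edgeR 4.0.16 (TMM scaling, quasi-likelihood test, 4 groups in 1 model) and 4 surrogate variables from sva 3.50.0 in R 4.3.3. Cntn5 did not pass. CPM are scaled counts and are not corrected for surrogate variables, so fitted fold changes can differ from ratios of means. The joint fit of the regions used no surrogate variables, and 13993 genes whose mean count reached 50 in either region. Standard errors are the log2 fold change over the square root of the F statistic. P values were adjusted by Benjamini-Hochberg over all tested genes, and scripts were tested on simulated data. nRPKM used the joint TMM scaling and the union of exons. Figures used matplotlib 3.10.9.

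The windows upstream of RefSeq starts came from RefSeq for GRCm38.p6, where all 6 members matched, and need not be the promoters used in these tissues. The genes named are the members, their neighbours and partners from fixed lists, and the 5 genes most like Cntn3 by correlation. Of the closest genes, 1 is not reported here, nor are sums over some marker lists. The members and lists were chosen with earlier results of these data known. Alternatives were other numbers of surrogate variables, DESeq2 1.42.0, RLE scaling, other filters, only the groups compared, a GC correction, a replicate block and each library left out in turn. Replicate numbers are the last digits of the sample titles. Counts are subject to counting error, which for Cntn3 gives a coefficient of variation of 8.58% in brainstem and 6.85% in hippocampus, against 12.3% and 9.14% between libraries within groups.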

Additional observations from a re-analysis of the deposited data

Results flagged for a closer look

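The genotype difference of Cntn3 differed between the regions, by -0.53 on the log2 scale for hippocampus minus brainstem. The flag came from the call of the genotype and region interaction in the joint edgeR fit. That call rests on the hippocampal values that chose Cntn3, so it adds no support, and the difference is a description. None of the 48 sets of libraries (6 members in 8 groups) held a library that stood apart by Dixon's criterion, which chance meets in about 1 in 20 groups.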

How the results depend on the processing

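Of 148 counts of called members under another setting, 145 stayed at the main value or within 1.5 times of it. Most of these counts were 0 in the main fit, in comparisons where few genes were called at all, so they had little room to move. The hippocampal genotype counts rest on Cntn3, which was chosen there. The exceptions all concern Cntn3. With 2 surrogate variables, 1 member was called for brainstem TG_HFD/WT_HFD (Cntn3, -0.46, adjusted p = 0.0435, edgeR) where the main fit called 0. With the replicate block and 4 surrogate variables, 0 members were called for brainstem TG/WT averaged over diets (Cntn3 at -0.36, adjusted p = 0.272), against 1 in the main fit, while with the block and 0 surrogate variables 1 was called (adjusted p = 0.0473). With 0 surrogate variables and no block, Cntn3 was at -0.43 (adjusted p = 0.00835), and over the alternatives of this comparison the adjusted p ranged from 0.00231 to 0.272. For the genotype difference between regions, 0 members were called in a joint fit with a block for group and replicate number, against 1. That fit used the 34 libraries numbered alike in both regions. Cntn3 was at -0.58 there and between -0.54 and -0.53 in the other settings and the main fit. The call in the main fit rests on the values that chose Cntn3 and is no support for a difference. The cause of these changes was not tested. With single libraries left out, 0 to 1 members were called for brainstem TG/WT averaged over diets, and other counts did not move. DESeq2 gave Cntn3 no adjusted p for the averaged genotype comparison in either region, since its independent filter removed it, and without that filter (added after seeing the data) 1 member was called in each.

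Same-numbered libraries of different groups correlated with a median r of 0.0392 in brainstem and 0.0651 in hippocampus. Their lowest values were -0.314 and -0.147. Libraries with unlike numbers had medians of -0.026 and -0.0414, so same-numbered libraries were slightly more alike. Between regions within a group, the medians were 0.0873 for like and -0.0229 for unlike numbers. The labels do not say what the numbers stand for. Counts over all genes moved more: in hippocampus TG_HFD/WT_HFD went from 41 to between 11 and 573 genes and the averaged comparison from 38 to between 9 and 208, and in brainstem TG_SD/WT_SD from 18 to between 3 and 28 and the averaged comparison from 13 to between 7 and 26. Over all these settings hippocampal Cntn3 stayed between -0.97 and -1.05 averaged over diets, and between -1.08 and -1.02 with single libraries left out. Without a filter on low counts in the joint fit (added after seeing the data), Cntn1 was also called between regions, at 0.31. The order of Cntn4, Cntn6 and Cntn3 per length rests on exon lengths: with the longest transcript, brainstem Cntn6 was at 5.31 and Cntn4 at 5.21 nRPKM, and hippocampal Cntn4 at 3.41 and Cntn3 at 2.87 nRPKM, both orders turned round. Where the mean was under 100 reads per library (Cntn5, and Cntn6 in hippocampus), counting error was 10.7% to 15.3%.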

Other observations

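In the joint edgeR fit of the regions, where 61.3% of all genes were called, 5 of 7 Caspr genes and 4 of 7 other adhesion genes were called. Only 5 of the 7 Caspr genes reached the mean count minimum in brainstem, against 7 in hippocampus. For a gene that entered this fit through its hippocampal counts alone, the filter itself favours a call as higher there. Among the Caspr genes, whose products pair with contactins, Cntnap3 was at 2.82 ± 0.10 (SE) on the log2 scale for hippocampus over brainstem (adjusted p = 5.82e-30), Cntnap5c at 2.14 ± 0.10 (adjusted p = 4.3e-25), Cntnap5b at 0.91 ± 0.07 (adjusted p = 7.49e-16) and Cntnap4 at -0.66 ± 0.05 (adjusted p = 9.24e-18). Cntnap5a, at -0.10 ± 0.06, was not called (adjusted p = 0.102).

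IgLON genes, which encode lipid-anchored adhesion molecules as the contactin genes do, went both ways. Opcml was at 1.41 ± 0.03 (adjusted p = 1.63e-37, edgeR) and Negr1 at 0.55 ± 0.03 (adjusted p = 4.57e-20, edgeR), while Iglon5 was at -1.68 ± 0.05 (adjusted p = 3.8e-33, edgeR). Lsamp was also called, and Ntm, at -0.01 ± 0.02, was not. Epb41l3, a scaffold beneath the axon membrane beside nodes, was at -1.91 ± 0.04 (adjusted p = 9.14e-42, edgeR), and Dlg4, a scaffold of synapses and juxtaparanodes, at 1.82 ± 0.03 (adjusted p = 7.07e-42, edgeR).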
